A study of Mus musculus with 36 samples.

Results

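The 33 genes described here belong to the response that cells make to amino acid shortage and to unfolded protein in the endoplasmic reticulum (ER): the transcription factor ATF4, genes known as its targets, and the chaperones and degradation factors of the unfolded protein response. They were taken as a named list, each gene by its brightest probe set, and 32 of the 33 passed a minimum of log2 4 in at least 3 of 36 arrays, among 9549 genes that passed it in the whole series. Slc7a11, the cystine transporter, had no tested probe set, since its brightest one lay between 2.73 and 3.15 with 0 arrays above the minimum. Sdf2l1 passed with 7 arrays above it, all labelled at 150-180 min, and Pdia4 with 29.

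The study measured newly made RNA in the mouse fibroblast line NIH-3T3, which was established from embryos, by letting cells take up 4-thiouridine (4sU), isolating the RNA that carries it and hybridising that RNA to Affymetrix arrays. Cells received fresh medium with IFN gamma at 100 U/ml, with IFN alpha at 100 U/ml, or with mock. Each of these 3 treatments was labelled in 4 windows counted from the medium change, at 0-30, 30-60 and 150-180 min with 500 µM 4sU and at 0-60 min with 200 µM, which gives 12 groups of 3 arrays. The mock cells also received the medium change, and nothing in the labels says that the arrays of a group came from separate cultures, so a p-value here speaks of the spread between arrays alone, which may be technical.

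ATF4 is made when a kinase that senses stress phosphorylates the translation factor eIF2 and general protein synthesis slows. It then turns on genes for amino acid uptake and synthesis, and also genes that restrain the response, such as Trib3 and Ppp1r15a. In the ER, misfolded protein also activates the sensor IRE1, which splices the Xbp1 messenger, and the membrane-bound factor ATF6, which raises chaperones such as Hspa5. Among the genes that interferons induce is Eif2ak2, which encodes PKR, a kinase of eIF2.

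Known binding sequences of these factors were searched on both strands in RefSeq promoter windows of build GRCm38.p6, 250 bases before to 50 after each gene's start, which were at hand for 30 of the 33 genes. Vldlr, Psat1 and Slc7a1 had a further window for another start. A gene was counted if any of its windows held a match. The ER stress element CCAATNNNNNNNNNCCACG, the best known site of ATF6, was present in 5 of the 30 genes (16.7%). Of 7826 tested genes with a window 11 held it (0.141%), and the 5 are themselves among these 11. The members were listed as known genes of this response, so the higher share describes the list and is not a test. All 5 encode ER chaperones or folding factors, and they are shown because the ER folding genes are taken up again between labelling windows. Capitals mark the CCAAT and CCACG parts, each line reads 5′ to 3′ along the strand that carries the element, and 10 flanking bases are given on each side. Distances are counted to the first base of the match in the gene's direction of transcription. For an element on the other strand this is the last base of the element as printed.
Hspa5, chr2:34772015-34772053, plus strand, element beginning 65 bases upstream of the start: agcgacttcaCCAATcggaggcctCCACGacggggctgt
Hsp90b1, chr10:86705628-86705666, minus strand, 212 bases upstream: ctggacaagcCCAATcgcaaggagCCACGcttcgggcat
Hsp90b1, chr10:86705523-86705561, plus strand, 107 bases upstream: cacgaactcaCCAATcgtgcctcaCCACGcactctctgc
Pdia6, chr12:17266481-17266519, plus strand, 98 bases upstream: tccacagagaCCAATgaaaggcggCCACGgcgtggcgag
Dnajc3, chr14:118937817-118937855, plus strand, 105 bases upstream: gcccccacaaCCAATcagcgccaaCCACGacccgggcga
Creld2, chr15:88819510-88819548, minus strand, 126 bases upstream: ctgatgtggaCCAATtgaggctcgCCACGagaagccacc

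The C/EBP-ATF response element TGATGNAA, through which ATF4 acts, was found in 6 of the 30 genes (20%), against 203 of 7826 tested genes (2.59%). Apart from Slc7a11, which was not tested, the 6 are themselves among these 203. Here too the share describes a list of known targets and is not a test. The element's sites in Trib3, Asns, Chac1 and Herpud1 are shown, since these genes carry the interferon results or were followed whatever they did. Vldlr and Slc7a11 hold the others. Capitals mark the element, and distances are counted as for the ER stress element.
Trib3, chr2:152344029-152344056, plus strand, beginning 14 bases downstream of the start on this minus-strand gene: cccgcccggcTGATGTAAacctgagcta
Asns, chr6:7693215-7693242, minus strand, 23 bases upstream: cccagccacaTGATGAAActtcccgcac
Chac1, chr2:119351039-119351066, minus strand, 193 bases upstream: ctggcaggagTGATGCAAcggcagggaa
Herpud1, chr8:94386307-94386334, minus strand, 112 bases upstream: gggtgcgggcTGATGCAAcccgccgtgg

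The interferon-stimulated response element TTTCNNTTTC was present in 2 of the 30 genes (Vldlr and Ppp1r15a, 6.67%), against 3.62% of tested genes. The UPR element TGACGTG was in 1 (Hspa5, 3.33%), against 3.62%. No match of these motifs overlapped a match of another, apart from the CCACG part that the ER stress element contains, which was also searched alone. The Trib3 window, printed whole because Trib3 gave the clearest interferon result, held no match of the interferon-stimulated response element; it lies at chr2:152344011-152344310, is printed along the minus strand in the direction of transcription, and has the C/EBP-ATF element, here read from its other strand, in capitals. A match is a description of the letters and not evidence of binding.
Trib3: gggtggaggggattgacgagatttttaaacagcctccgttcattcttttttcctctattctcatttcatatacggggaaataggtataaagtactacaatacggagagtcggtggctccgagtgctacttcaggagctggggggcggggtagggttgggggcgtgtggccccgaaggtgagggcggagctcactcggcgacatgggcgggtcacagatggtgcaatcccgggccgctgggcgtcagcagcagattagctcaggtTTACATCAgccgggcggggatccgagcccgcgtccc

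Both interferons acted on these cells: Irf1, an early interferon target, was higher in all 8 comparisons with mock, by 5.14 ± 0.19 (log2, SE) with IFN gamma and by 2.15 ± 0.19 with IFN alpha at 0-30 min. All 10 fibroblast markers passed the minimum, while 1 of 8 macrophage markers (Cd14, mean log2 6.17), 0 of 6 epithelial and 0 of 5 endothelial markers did. Mock array 1 at 0-60 min stood apart, with a Gapdh 3′ minus 5′ difference of 2.67 against -0.57 to 0.73 in the other 35 arrays and a correlation with its group of as low as 0.96. The bioC control transcript, which is added to every hybridisation, ranged from 7.49 to 10.66 at 30-60 min and from 8.54 to 9.90 at 0-60 min, against 7.31 to 7.55 at 0-30 min and 6.96 to 7.27 at 150-180 min.

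Trib3 was the only member called in any of the 30 min windows of either interferon. It encodes a pseudokinase that binds ATF4 and dampens its output. At 30-60 min its log2 signal was 7.37, 7.12 and 7.14 in the IFN gamma arrays, 6.23, 5.89 and 6.03 in the IFN alpha arrays, and 6.10, 5.48 and 5.64 in the mock arrays. Every IFN gamma array lay above every other array of that window, and the IFN alpha and mock arrays overlapped. The IFN gamma mean exceeded mock by 1.47 ± 0.19 (log2, SE, n = 3 arrays each; 2.77-fold; limma adjusted p = 7.8e-07) and IFN alpha by 1.16 ± 0.19 (2.23-fold, adjusted p = 4.7e-05). The IFN alpha mean differed from mock by 0.31 ± 0.19 (adjusted p = 0.76).

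The Trib3 probe set used may share probes with other transcripts, as its design suffix marks; the gene's other probe set gave 1.10 ± 0.26 against mock (adjusted p = 0.0065) and 1.03 ± 0.26 against IFN alpha (adjusted p = 0.013) in the same window. At 0-30 min the IFN gamma arrays read 9.01, 8.97 and 8.80, against 8.73, 8.30 and 8.64 in mock, a difference of 0.37 ± 0.19 that was not called although the arrays did not overlap. At 150-180 min they read 8.68, 8.29 and 8.33, against 7.92, 8.39 and 7.89 in mock, again 0.37 ± 0.19 and not called (adjusted p = 0.39), with overlapping arrays. At 0-60 min the values were 7.36, 7.97 and 7.39 with IFN gamma and 7.53, 7.32 and 7.13 with mock, a difference of 0.25 ± 0.19 with overlap.

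The change of the response itself was tested as a difference of differences. The IFN gamma effect on Trib3 was larger at 30-60 than at 0-30 min by 1.10 ± 0.27 (adjusted p = 0.022) and smaller at 150-180 than at 30-60 min by 1.10 ± 0.27 (log2 -1.10, adjusted p = 0.018). Trib3 was the 1 member of 32 called in each; 1.27% of genes were called higher and 0.23% lower in the first change, 1.2% higher and 0.702% lower in the second. Each call was lost in 6 of 12 fits that left out 1 array, and the other Trib3 probe set gave 0.81 ± 0.36 (adjusted p = 0.80) and -0.66 ± 0.36 (adjusted p = 0.71). The IFN alpha response changed for 0 of 32 members in either step, where 1.31% and 0.471% of genes were called; 0 and 1 members passed an unadjusted p of 0.05.

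**Figure D1:**
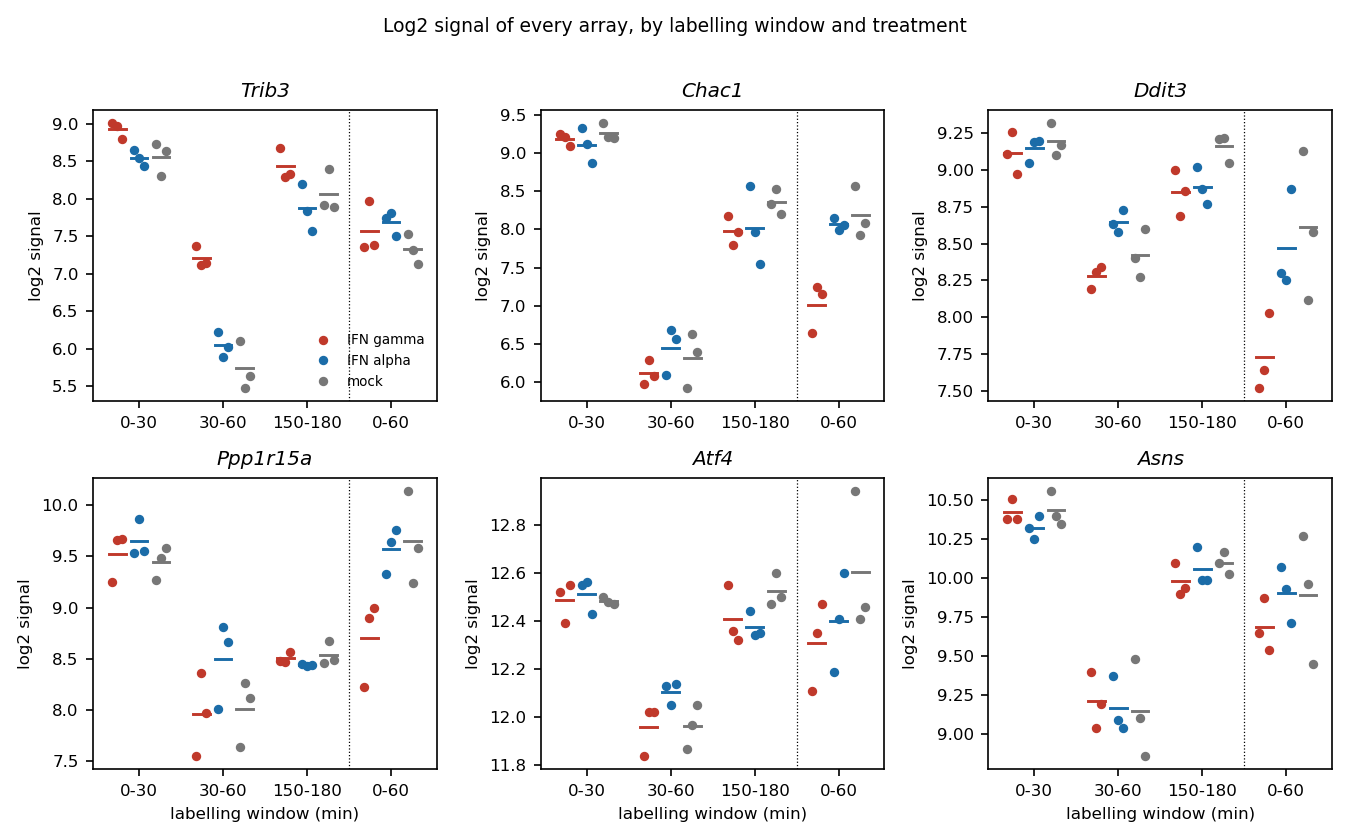
Log2 signal of every array (points) and group means (bars) for 6 members, by labelling window in min and treatment; the dotted line sets off the 0-60 min window, labelled at the lower 4sU concentration. The 3 IFN gamma arrays of Trib3 sit between 7.12 and 7.37 at 30-60 min, above the other arrays of that window, and those of Chac1, Ddit3 and Ppp1r15a sit below the mock arrays at 0-60 min.

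No other member passed the test against mock in the 30 min windows. With IFN gamma, 0 of 32 members were called at 0-30 min, where 0.796% of genes were, and 0 at 150-180 min, where 5.91% were. In either window 0 members passed an unadjusted p of 0.05, beside 222 and 1328 of 9549 genes. At 30-60 min 1 of 32 was higher and 0 lower, where 3.82% of genes were higher and 2.06% lower. There 4 members passed an unadjusted p of 0.05, beside 1370 of 9549 genes. With IFN alpha, limma called 0 of 32 members at 0-30, 30-60 and 150-180 min, where 0.377%, 2.59% and 2.69% of genes were called. In these windows 2, 1 and 2 members passed an unadjusted p of 0.05, beside 137, 856 and 764 of 9549 genes. Fitted with the array number as a block, which pairs the arrays at 30-60 min, IFN gamma against mock gave 1 member higher and 3 lower (Sesn2, Slc3a2 and Xbp1), where 5.75% and 6.41% of genes were called.

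Atf4 itself had 95% confidence intervals within 0.38 of mock in the 30 min windows and gave no call. At 30-60 min its signal was 11.84, 12.02 and 12.02 with IFN gamma, 12.13, 12.05 and 12.14 with IFN alpha, and 11.87, 11.97 and 12.05 with mock. The IFN gamma difference from mock was 0.00 ± 0.12 with an interval of -0.24 to 0.23, and the arrays overlapped. ATF4 is controlled largely at translation, which arrays of newly made RNA do not measure.

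Asns, the asparagine synthetase gene and a textbook ATF4 target, read 9.40, 9.04 and 9.19 with IFN gamma, 9.37, 9.09 and 9.04 with IFN alpha, and 9.48, 9.10 and 8.86 with mock at 30-60 min. The groups overlapped, and the IFN gamma difference of 0.06 ± 0.16 had an interval of -0.26 to 0.39. Hspa5, the main ER chaperone BiP, read 13.37, 13.28 and 13.29 with IFN gamma, 13.24, 13.15 and 13.18 with IFN alpha, and 13.43, 13.32 and 13.26 with mock at 150-180 min. Its IFN gamma difference there was -0.02 ± 0.20 with an interval of -0.43 to 0.38, and the arrays overlapped. Ddit4, an inhibitor of mTORC1 signalling, was the least precise member, with intervals as wide as -2.06 to 0.68 for IFN gamma at 150-180 min.

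**Figure D2:**
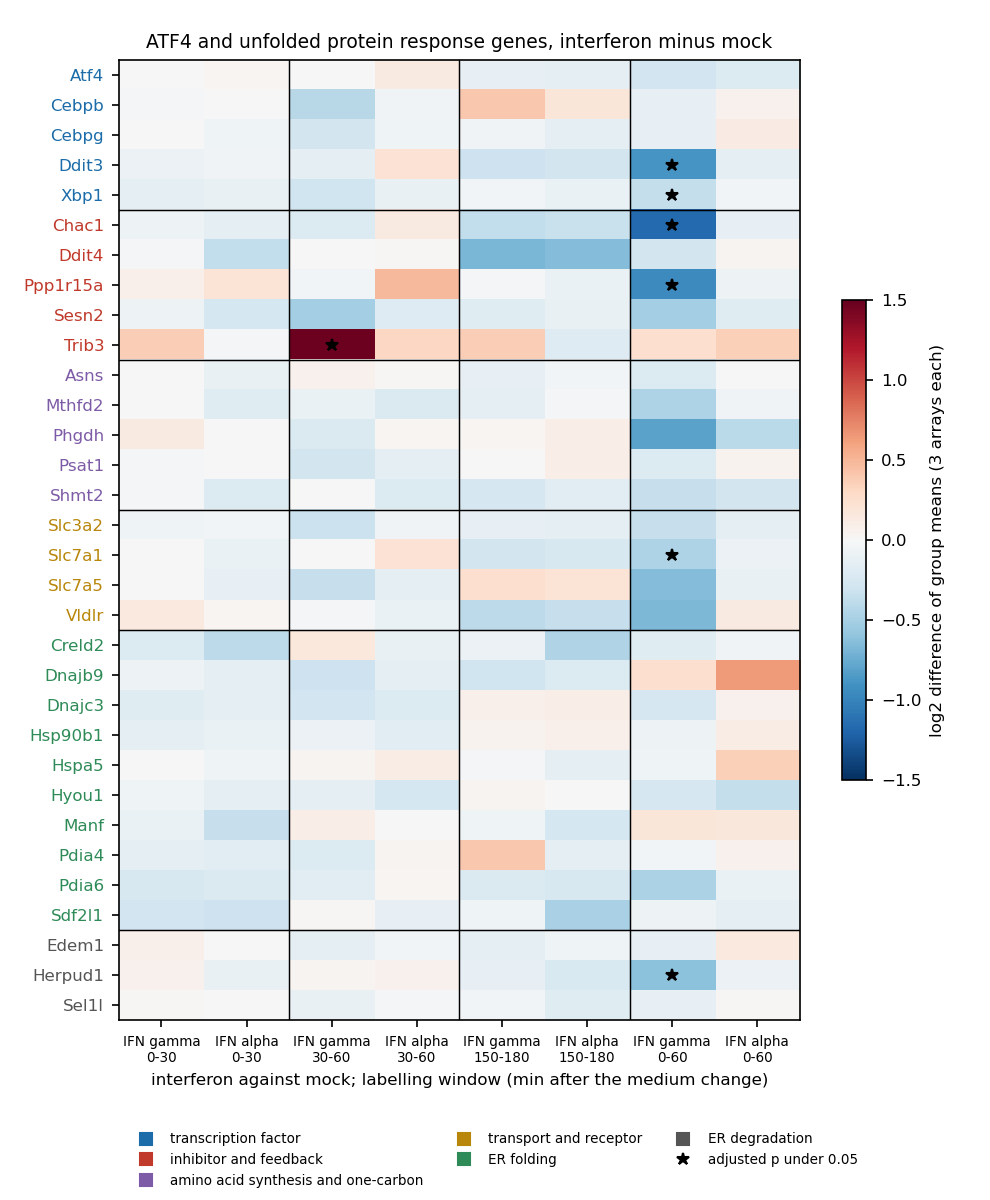
Difference of group means, interferon minus mock (log2, 3 arrays each), for the 32 tested members in rows, grouped by role, and the 8 comparisons in columns; stars mark an adjusted p under 0.05. The single star in the 30 min windows is Trib3 with IFN gamma at 30-60 min, and the other 6 stars are lower values with IFN gamma at 0-60 min.

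The 0-60 min window, labelled for longer and at the lower 4sU concentration, gave another picture. With IFN gamma 6 of 32 members were lower than mock and 0 higher, where 2.90% of genes were called lower and 3.83% higher; the members' median was -0.27, against -0.05 over all genes. The 6 were Chac1, Ddit3, Ppp1r15a, Herpud1, Slc7a1 and Xbp1. An unadjusted p of 0.05 was passed by 12 members with IFN gamma, beside 2129 of 9549 genes. With IFN alpha 0 of 32 were called, where 1.98% of genes were, and 0 passed an unadjusted p of 0.05, beside 1341 genes. The test took each gene's spread from all groups together. The members' median SD at 0-60 min was 0.32 in mock and 0.2 with IFN gamma and with IFN alpha. In mock it was 0.14 at 0-30 min and 0.12 at 150-180 min. At 30-60 min the members' median SD was 0.23 in mock and with IFN alpha, and 0.22 with IFN gamma. Pooling can thus make p-values too small at 0-60 and at 30-60 min, and too large at 0-30 and 150-180 min. This holds for the Trib3 call at 30-60 min as well.

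Chac1, which degrades glutathione and is induced through ATF4 and CHOP, read 6.64, 7.25 and 7.16 with IFN gamma, 8.15, 7.99 and 8.06 with IFN alpha, and 8.56, 7.93 and 8.08 with mock. All IFN gamma arrays lay below all others. The difference from mock was -1.17 ± 0.21 (2.25-fold lower, adjusted p = 3.1e-04) and that from IFN alpha -1.04 ± 0.21 (adjusted p = 0.0017).

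Ddit3, which encodes CHOP, a factor that promotes cell death in lasting ER stress, read 7.52, 7.64 and 8.03 with IFN gamma, 8.30, 8.25 and 8.87 with IFN alpha, and 9.13, 8.12 and 8.58 with mock. Ppp1r15a, the regulatory subunit GADD34 that directs dephosphorylation of eIF2, read 8.22, 8.90 and 9.0 with IFN gamma, 9.33, 9.64 and 9.76 with IFN alpha, and 10.14, 9.24 and 9.58 with mock. For both genes the IFN gamma arrays lay below all others, and mock array 1 was the highest. Ddit3 differed from mock by -0.88 ± 0.18 (adjusted p = 0.0011) and Ppp1r15a by -0.95 ± 0.22 (adjusted p = 0.0061). Against IFN alpha the differences were -0.74 ± 0.18 (adjusted p = 0.0090) and -0.87 ± 0.22 (adjusted p = 0.017).

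Herpud1, a membrane protein that helps degrade ER proteins, read 8.20, 8.87 and 8.32 with IFN gamma, 8.82, 9.24 and 8.94 with IFN alpha, and 9.13, 9.19 and 8.94 with mock. The IFN gamma arrays were below the mock arrays and overlapped those of IFN alpha, with differences of -0.62 ± 0.16 (adjusted p = 0.011) and -0.53 ± 0.16 (adjusted p = 0.048). Xbp1, the factor activated by IRE1, read 10.71, 10.92 and 10.68 with IFN gamma, 11.08, 11.16 and 11.05 with IFN alpha, and 11.18, 11.23 and 10.98 with mock. Slc7a1, a carrier of arginine and lysine, read 10.31, 10.44 and 10.66 with IFN gamma, 10.76, 10.89 and 10.88 with IFN alpha, and 11.04, 10.84 and 10.91 with mock. For both, all IFN gamma arrays were below the others; the differences from mock were -0.36 ± 0.10 (adjusted p = 0.023) and -0.46 ± 0.14 (adjusted p = 0.033), and neither was called against IFN alpha.

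IFN gamma against IFN alpha at 0-60 min thus called 4 of 32 members lower and 0 higher (Chac1, Ddit3, Ppp1r15a and Herpud1), where 2.36% of genes were lower and 1.65% higher. In the same comparison Trib3 was the 1 member called higher at 30-60 min, where 2.72% of genes were higher and 2.97% lower. At 0-30 and 150-180 min 0 of 32 were called, where 0.712% and 4.69% of genes were. In these windows 1 and 3 members passed an unadjusted p of 0.05, beside 232 and 897 of 9549 genes. At 30-60 and 0-60 min 3 and 11 members did, beside 1200 and 1175 genes. These comparisons use the same IFN gamma arrays as those with mock.

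Without a block, none of the same 6 genes was called in the 30 min windows that span the same time. Chac1 differed from mock by -0.08 ± 0.21 at 0-30 min and -0.20 ± 0.21 at 30-60 min with IFN gamma, Ddit3 by -0.09 ± 0.18 and -0.14 ± 0.18, and Ppp1r15a by 0.08 ± 0.22 and -0.04 ± 0.22. Xbp1 came closest, with -0.30 ± 0.10 at 30-60 min (adjusted p = 0.089) and arrays of 10.45, 10.33 and 10.43 with IFN gamma, all below 10.80, 10.53 and 10.76 with mock, and it was called lower there with the array number as a block. The difference between the 0-60 min window and the shorter ones was not tested. Without mock array 1, which stood apart, 5 members were lower at 0-60 min, where 1.85% of genes were: Chac1 (-0.98, adjusted p = 0.0044), Ddit3 (-0.62, adjusted p = 0.019) and Herpud1 (-0.60, adjusted p = 0.031) kept their calls, Hspa5 and Dnajb9 were added, and Ppp1r15a, Slc7a1 and Xbp1 were not called. Without IFN gamma array 1, which was the lowest of its group for 5 of the 6 genes, 2 kept their calls against mock, Chac1 (-0.98, adjusted p = 0.0066) and Ddit3 (-0.78, adjusted p = 0.014). In mock array 1 Hspa5 read 11.53 and Dnajb9 6.40, against 12.83 and 13.00, and 8.96 and 8.77, in the other mock arrays.

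Array number pairs the arrays at 0-60 min, and with it as a block 13 members were lower than mock with IFN gamma, where 11.8% of genes were, and 11 lower than with IFN alpha, where 6.47% were. The 13 added Sesn2, Vldlr, Phgdh, Mthfd2, Slc7a5, Slc3a2 and Pdia6 to the 6. A fit on the 0-60 min arrays alone took its spread from that window. It kept Chac1 as the 1 lower member, where 0.147% of genes were called lower. The other probe sets of Ddit3, Herpud1, Slc7a1 and Xbp1 gave no call for IFN gamma against mock at 0-60 min. They gave -0.32 ± 0.29 for Ddit3, -0.34 ± 0.20 for Herpud1 and -0.15 ± 0.19 for Slc7a1. Those of Xbp1 gave -0.35 ± 0.29, -0.14 ± 0.17 and, in the other direction, 0.45 ± 0.35. Each of these genes lost its call when its probe sets were averaged. Chac1 and Ppp1r15a had no other probe set.

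**Figure D3:**
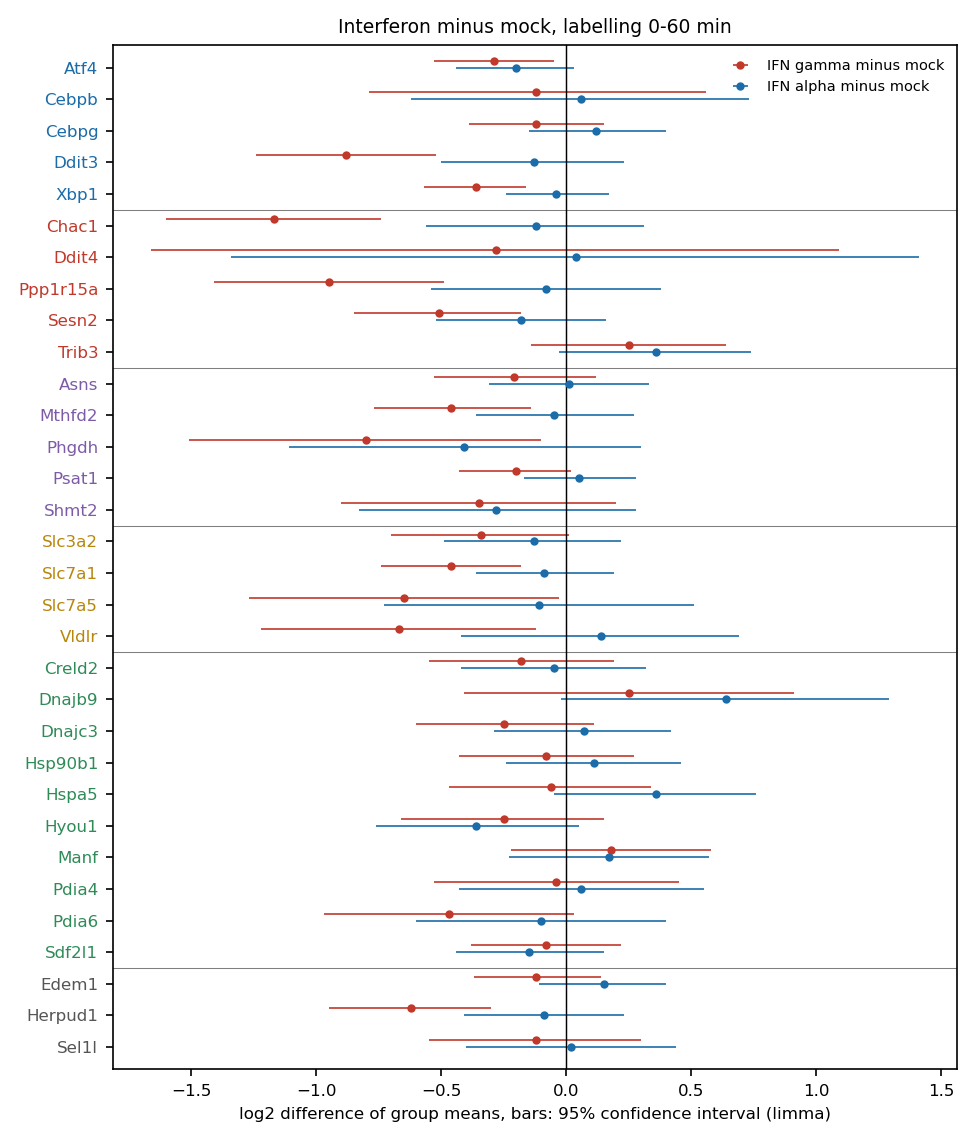
Interferon minus mock at 0-60 min for the 32 tested members, grouped by role as colours show (log2 difference of means of 3 arrays each; bars are 95% confidence intervals). The IFN gamma points of Chac1 (-1.17), Ppp1r15a (-0.95) and Ddit3 (-0.88) lie farthest to the left, and their IFN alpha points lie between -0.13 and -0.08.

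In mock cells, which received only fresh medium, the members moved strongly between labelling windows. At 30-60 against 0-30 min 27 of 32 were lower and 1 higher, where 51.8% of genes were lower and 9.05% higher; the members' median was -0.84 and that of all genes -0.52. At 150-180 against 30-60 min 28 were higher, Sdf2l1 among them through the filter, and 3 lower, where 53.4% of genes were higher and 10.7% lower; the medians were 0.90 and 0.55. Relative to the median of all genes, 25 of 32 members were below it in the first step and 23 above it in the second. Sdf2l1 is counted in both, with -0.13 and 1.48, though the filter fixed its direction in the second step. It also enters the members' medians and the 27 lower members. Its mock values in the 2 windows of the first step, 2.35 to 3.27, were all under the minimum of log2 4. Both steps use the same mock 30-60 min arrays with opposite sign. A low reading there gives a fall and then a rise, so the steps are not separate results. The bioC control also differed between these windows, its part in these changes was not tested, and window and hybridisation cannot be told apart.

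Trib3 and Chac1 dipped most. Trib3 read 8.73, 8.30 and 8.64 in mock at 0-30 min, 6.10, 5.48 and 5.64 at 30-60 min, and 7.92, 8.39 and 7.89 at 150-180 min. Chac1 read 9.39, 9.20 and 9.19 at 0-30 min, 5.93, 6.63 and 6.40 at 30-60 min, and 8.33, 8.53 and 8.20 at 150-180 min. All arrays at 30-60 min were below all others for both genes, with differences from 0-30 min of -2.82 ± 0.19 and -2.94 ± 0.21 (adjusted p = 6.5e-13 and 3.5e-12). The serine and folate enzymes Shmt2 (-2.17 ± 0.27), Phgdh (-1.80 ± 0.35) and Mthfd2 (-1.65 ± 0.15) were also lower at 30-60 min, as was Vldlr, a lipoprotein receptor (-1.78 ± 0.27).

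Cebpb, a C/EBP factor that partners ATF4, was the exception. It read 11.84, 13.14 and 12.86 in mock at 30-60 min, against 11.47, 11.14 and 11.35 at 0-30 min. The later arrays were all above the earlier ones, by 1.29 ± 0.33 (adjusted p = 0.0013), and spread widely among themselves. Xbp1 (-0.02 ± 0.10) and Slc7a1 (-0.13 ± 0.14) showed no difference that passed the test.

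Atf4 itself differed between 30-60 and 0-30 min by -0.52 ± 0.12 (adjusted p = 3.1e-04) in the probe set used, equal to the median of all genes. Another Atf4 probe set gave 0.81 ± 0.12 in the opposite direction (adjusted p = 2.1e-06), and then -0.70 ± 0.12 where the one used gave 0.56 ± 0.12 at 150-180 against 30-60 min. The direction of Atf4 between these windows is therefore not settled. Probe sets of Cebpg and Ddit3 also disagreed at 150-180 against 30-60 min, with -1.60 ± 0.38 and -0.80 ± 0.19 beside 0.39 ± 0.13 for Cebpg, and -0.69 ± 0.29 beside 0.74 ± 0.18 for Ddit3. Over all calls of members, 49 of 88 results from other probe sets of the same genes were called the same way. In mock at 30-60 against 0-30 min Pdia6, Dnajc3 and Hyou1 lost their calls when probe sets were averaged. The other Hspa5 probe sets gave -0.20 ± 0.19 and -0.35 ± 0.25 there, without a call.

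**Figure D4:**
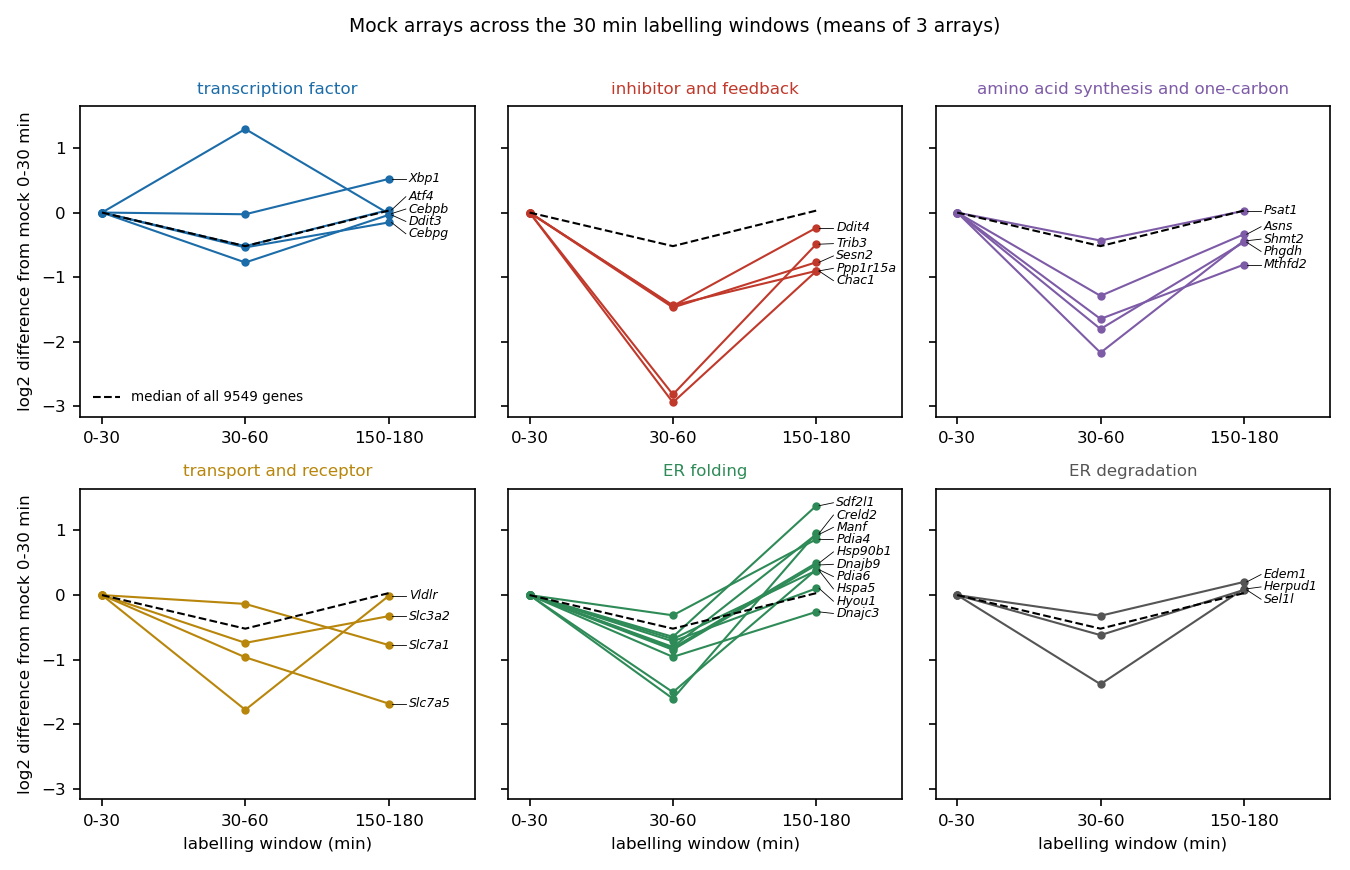
Mean log2 signal of the 32 tested members in mock arrays relative to mock 0-30 min (3 arrays each), by labelling window in min and role; the dashed line is the median of all 9549 genes. At 30-60 min Chac1 and Trib3 reach -2.94 and -2.82. At 150-180 min all ER folding genes except Dnajc3 lie above 0, and all 5 genes classed as inhibitors and feedback lie below it.

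Between the first and the last 30 min window the median of all genes differed by 0.03, and members were called in both directions. At 150-180 against 0-30 min 5 members were higher and 6 lower in mock, where 4.85% of genes were higher and 4.85% lower. The 5 higher were Sdf2l1, Creld2, Manf, Pdia4 and Xbp1. Sdf2l1 passed the minimum only through its 150-180 min arrays and had to differ; without it 4 members were higher, among them 3 of 9 ER folding genes, with 0 of those lower. The 6 lower were Slc7a5, Chac1, Ppp1r15a, Mthfd2, Slc7a1 and Sesn2. They made 3 of 5 genes classed as inhibitors and feedback, 2 of 4 tested transport and receptor genes and 1 of 5 genes of amino acid synthesis. The first class includes Chac1, whose product degrades glutathione. The medians by role, whose differences were not tested, were 0.48 for ER folding with Sdf2l1, -0.77 for inhibitors and feedback, -0.55 for transport, -0.44 for amino acid synthesis, -0.02 for transcription factors and 0.10 for ER degradation.

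Creld2, a secreted ER factor whose promoter holds the ER stress element shown above, read 9.24, 8.87 and 8.80 in mock at 150-180 min, against 8.25, 7.98 and 7.81 at 0-30 min. Manf, an ER-resident protein with neurotrophic activity, read 10.16, 10.04 and 10.28, against 9.37, 9.14 and 9.15. The later arrays of both were all above the earlier ones, by 0.95 ± 0.18 (adjusted p = 6.0e-04) and 0.94 ± 0.20 (adjusted p = 0.0018). The whole Creld2 window, given so that the element can be seen in place, lies at chr15:88819396-88819695 on the plus strand and has the CCACG and CCAAT parts in capitals as their complement.
Creld2: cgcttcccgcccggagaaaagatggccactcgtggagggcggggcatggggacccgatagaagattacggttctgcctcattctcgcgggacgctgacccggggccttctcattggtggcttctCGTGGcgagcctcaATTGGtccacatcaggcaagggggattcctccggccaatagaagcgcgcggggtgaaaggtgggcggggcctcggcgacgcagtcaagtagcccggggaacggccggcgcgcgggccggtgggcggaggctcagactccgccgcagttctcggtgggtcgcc

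Xbp1 read 11.33, 11.17 and 11.23 at 150-180 min, against 10.88, 10.55 and 10.74 at 0-30 min, with no overlap and a difference of 0.52 ± 0.10 (adjusted p = 7.7e-04). Sdf2l1, a partner of ER chaperones, read 4.50, 4.45 and 4.58, against 3.08, 3.27 and 3.03, and Pdia4, a disulphide isomerase, 5.51, 5.55 and 5.03, against 4.56, 4.62 and 4.32. Both are dim: the earlier Sdf2l1 values were under the minimum of log2 4, and that gene passed only through its 150-180 min arrays, so its difference of 1.38 ± 0.15 had to appear and is given as a description. Pdia4 differed by 0.86 ± 0.24 (adjusted p = 0.019) and lost its call in 3 of 6 fits without 1 array. Hsp90b1 (0.49 ± 0.17, adjusted p = 0.062) and Hspa5 (0.38 ± 0.20, adjusted p = 0.25) had later arrays all above the earlier ones but were not called. Of the 5 genes with an ER stress element only Creld2 was called.

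Slc7a5, the large neutral amino acid carrier, had the largest fall among the members. It read 6.96, 6.91 and 7.28 in mock at 150-180 min, against 8.82, 8.54 and 8.83 at 0-30 min, with no overlap and a difference of -1.68 ± 0.30 (adjusted p = 3.5e-04). Chac1 differed by -0.91 ± 0.21 (adjusted p = 0.0052), with the values given above and no overlap. Ppp1r15a read 8.46, 8.67 and 8.49, against 9.27, 9.48 and 9.58, a difference of -0.90 ± 0.22 (adjusted p = 0.0080).

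Mthfd2, a mitochondrial folate enzyme, read 10.11, 9.99 and 10.50 at 150-180 min, against 11.16, 10.83 and 11.03 at 0-30 min. Sesn2, a leucine-sensing inhibitor of mTORC1, read 7.85, 7.75 and 7.98, against 8.65, 8.49 and 8.75, and Slc7a1 9.84, 9.76 and 9.66, against 10.57, 10.43 and 10.58. None of these groups overlapped; the differences were -0.81 ± 0.15 (adjusted p = 7.0e-04), -0.77 ± 0.17 (adjusted p = 0.0022) and -0.77 ± 0.14 (adjusted p = 2.3e-04). Atf4 (0.04 ± 0.12) and Ddit3 (-0.04 ± 0.18) did not pass the test, and their arrays overlapped; Asns (-0.33 ± 0.16, adjusted p = 0.20) was lower in every later array without a call.

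The same step could be read in the interferon arrays, which share no array with mock but share its windows. Deviations of same-numbered arrays correlated above 0.1 for 9 of 9 pairs at 0-30 min and 7 of 9 at 150-180 min. Window and hybridisation cannot be told apart in any treatment, so these arrays are not a separate replication of the step. Leaving out Sdf2l1, whose direction the filter fixed, all 10 members called in mock were called in the same direction in the IFN gamma arrays, where 11 of 31 members were called and 12.3% of all genes, and in the IFN alpha arrays, where 12 members and 10.8% of genes were. Hsp90b1 was the addition in both, higher by 0.68 ± 0.17 with IFN gamma and 0.67 ± 0.17 with IFN alpha, and Trib3 differed by -0.67 ± 0.19 with IFN alpha (adjusted p = 0.017). In such bulk RNA fewer cells of a kind and less new RNA per cell cannot be told apart.

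**Figure D5:**
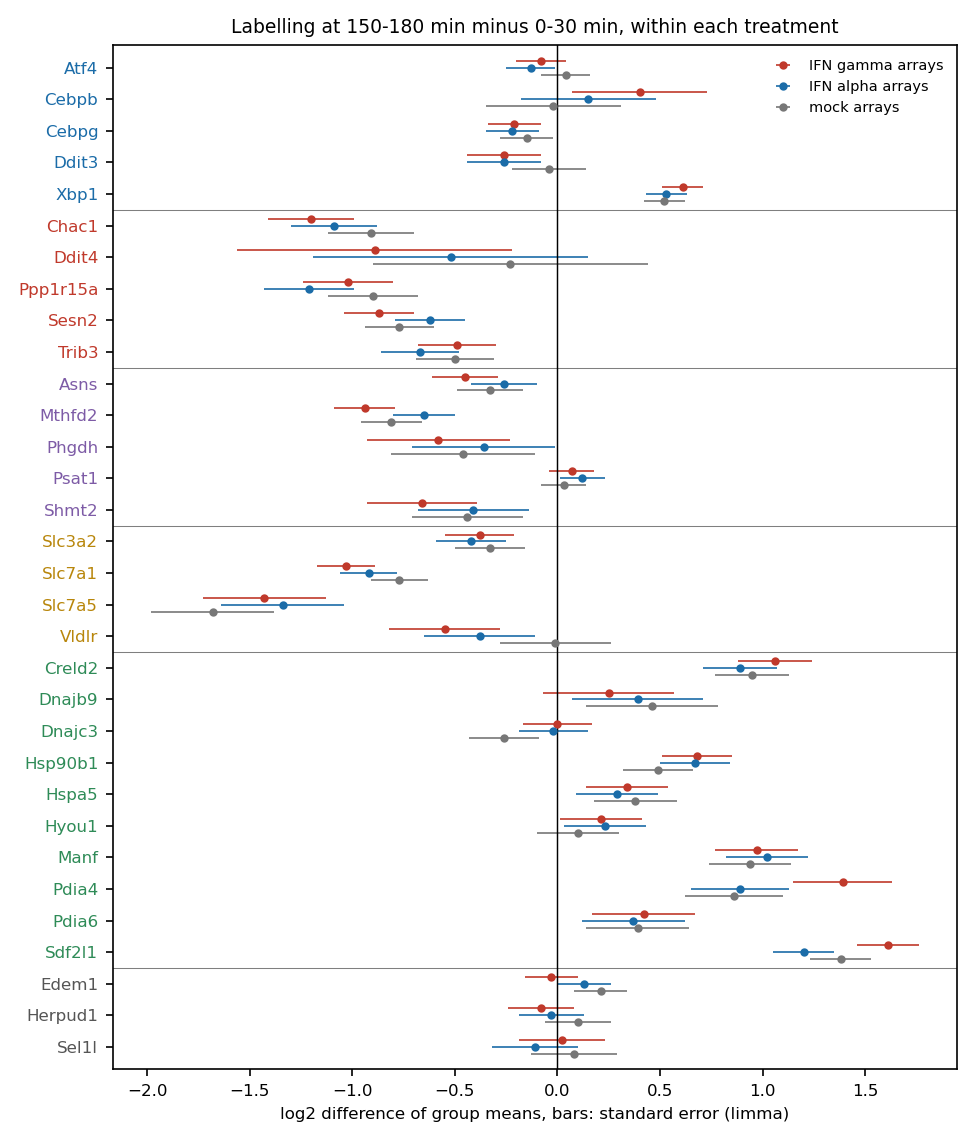
Labelling at 150-180 min minus 0-30 min for the 32 tested members in IFN gamma, IFN alpha and mock arrays (log2 difference of means of 3 arrays each; bars are standard errors). The 3 points of a gene span between 0.05 (Pdia6) and 0.66 (Ddit4), with a median of 0.22 and 3 genes above 0.5 (Ddit4, Vldlr and Pdia4): Slc7a5 runs from -1.68 to -1.34, Ppp1r15a from -1.21 to -0.90, Creld2 from 0.89 to 1.06 and Manf from 0.94 to 1.02.

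Other genes of these pathways, taken from fixed lists, were read beside the members. Of 9 tested sensors and eIF2 regulators, Eif2ak2 was the 1 called with interferon: it was higher by 1.37 ± 0.20 with IFN gamma and by 3.66 ± 0.20 with IFN alpha at 30-60 min, and by 1.88 ± 0.20 and 4.09 ± 0.20 at 150-180 min. Of 16 other ATF4 targets, 2 were higher with IFN gamma at 30-60 min, Atf3 (1.08 ± 0.17) and Nupr1 (1.44 ± 0.19), both stress-induced regulators of transcription, and 0 with IFN alpha in any window. The same 2 were higher with IFN gamma at 150-180 min, by 1.69 ± 0.17 and 0.83 ± 0.19. Of 15 aminoacyl-tRNA synthetases, Gars was higher with IFN gamma at 30-60 min (0.59 ± 0.11) and 150-180 min (0.41 ± 0.11), and Wars, known as an IFN gamma target, at 150-180 min (2.65 ± 0.26). Over all genes 3.82% were higher with IFN gamma at 30-60 min, and 5.91% were called in either direction at 150-180 min. With IFN alpha the shares called in either direction were 2.59% and 2.69% in these windows.

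At 0-60 min Slc1a4, a neutral amino acid carrier (-0.95 ± 0.23), and Eprs (-0.53 ± 0.14) were lower with IFN gamma, each the 1 called gene of its list. Of 25 other ER genes, Gosr2 was higher with IFN gamma at 30-60 min (0.82 ± 0.16) and Sec61a1 lower with IFN alpha at 0-60 min (-0.50 ± 0.13). Over all genes 2.90% were lower with IFN gamma at 0-60 min, 3.82% higher with it at 30-60 min, and 1.98% called with IFN alpha at 0-60 min. In mock at 150-180 against 0-30 min, 2 of 16 other ATF4 targets were higher (Slc38a2 and Slc1a4) and 3 lower (Atf3, Cth and Slc1a5). There 3 of 15 synthetases were lower (Eprs, Gars and Yars), and 1 of 25 ER genes was higher (Pdia3). Of all genes 4.85% were higher and 4.85% lower in that step.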

How the data were processed

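Newly transcribed RNA of 36 samples was hybridised to 1 array each. The authors deposited log2 values for 45101 probe sets, which the submitters' processing notes name as GCRMA output (its version is not given in the sources used here); values ran from 1.34 to 14.82. They were used as deposited, with no further scaling. In its usual form GCRMA adjusts background by probe sequence and quantile-normalises arrays, which can move genes when much of the new RNA shifts between windows. Control probe sets (64) and those with several symbols (932) or none (9160) were left out.

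Group means were fitted in limma 3.58.1 under R 4.3.3 over all 36 arrays, with an intensity trend in eBayes. The residual degrees of freedom were 24, with 6.83 added by the prior. Each of 19 contrasts was adjusted by Benjamini-Hochberg over 9549 genes and called under 0.05, two-sided. Arrays give no counts, so their number per group limits the precision. Tables were read with the R package data.table (version 1.17.8); motifs and figures used Python 3.11.15, pandas 2.3.3 and matplotlib 3.10.9.

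Array numbers come from the labels. Deviations from group means correlated above 0.1 for 9 of 9 same-numbered pairs within the 0-30, the 30-60 and the 0-60 min windows. They did so for 7 of 9 within 150-180 min (-0.29 to 0.69) and for 35 of 162 across windows. The numbers thus pair arrays within the first 3 windows, unevenly at 150-180 min, and mostly not across windows. Alternatives were the filter (none, or log2 6), adding 16 before the log2, quantile normalization, no trend, arrays of the compared windows alone, the mean of a gene's probe sets, the replicate block and leaving out each array. The same window steps in the interferon arrays, and a spread estimated without mock 0-60 min array 1, were added after seeing the data. Given with every array are members called in an interferon comparison and Atf4, Ddit3, Trib3, Asns, Xbp1, Hspa5, Herpud1 and Ppp1r15a; those called between the first and last mock window were added after their values were seen. Members and lists were chosen with earlier results of these data known.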

Additional observations from a re-analysis of the deposited data

Results flagged for a closer look

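The IFN gamma effect on Trib3 differed between labelling windows by a test of the difference itself. It was larger at 30-60 than at 0-30 min by 1.10 ± 0.27 (log2, SE, 3 arrays a group, limma adjusted p = 0.022), and the effect at 150-180 min differed from that at 30-60 min by -1.10 ± 0.27 (adjusted p = 0.018). The mock level of Trib3 differed between the same windows, with means of 8.56, 5.74 and 8.06 at 0-30, 30-60 and 150-180 min, and the part of this in the result was not tested. Trib3 did not rise in the IFN gamma arrays from 0-30 to 30-60 min. It differed there by -1.72 ± 0.19, beside -2.82 in mock.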

How the results depend on the processing

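The higher Trib3 signal with IFN gamma than with mock at 30-60 min kept its call in all 15 other fits (1.24 to 1.65). So did the lower Chac1 signal with IFN gamma than with mock at 0-60 min in all 14 (-1.30 to -0.98). Of 174 counts of called members in fits that kept every array, 158 stayed within 1.5 times the reported count. The cause of the others was not tested. A count can move with the share of all genes called in the same fit. Where the text gives no such share, the count is not a result about the members. That also holds for the fits that left out 1 array. With the replicate block, IFN gamma against mock called 4 members at 30-60 min and 13 at 0-60 min. IFN gamma against IFN alpha called 11 at 0-60 min and 1 at 150-180 min (Trib3), where the numbers pair the arrays unevenly. The arrays of the compared windows alone gave 1 and 0 at 0-60 min for IFN gamma against mock and against IFN alpha, and 20 in mock at 150-180 against 0-30 min, where that fit called 29.4% of all genes, against 9.7% in the fit over all arrays. The mean of all probe sets gave 3 for IFN gamma at 0-60 min and 0 for both changes of the IFN gamma response; adding 16 gave 0 for the first of these. IFN alpha at 150-180 min called 1 member (Sdf2l1, lower) with no filter, after adding 16, or with the spread taken without mock 0-60 min array 1, an alternative chosen after seeing the data that also gave 3 for IFN gamma at 30-60 min; adding 16 called 1 for IFN gamma against IFN alpha at 150-180 min (Sdf2l1).

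Leaving out 1 array moved the counts to 1 to 2 (IFN gamma, 30-60 min), 0 to 1 (IFN alpha, 0-60 min), 2 to 9 (IFN gamma, 0-60 min; the 9 came without mock array 2, where 17.5% of all genes were called, against 6.73% with all arrays), 0 to 1 and 1 to 5 (IFN gamma against IFN alpha, 150-180 and 0-60 min), and 0 to 1 (each change of the IFN gamma response). In mock they were 26 to 28, 28 to 30 and 10 to 11 for the 3 steps; the other counts stayed at 0 to 0 or 1 to 1. With IFN gamma array 1 left out at 0-60 min only Chac1 and Ddit3 kept their calls against mock, and only Chac1 against IFN alpha. The mean of all probe sets turned Atf4 (0.14 and -0.07) and Cebpg (0.03 and -0.67) in mock at 30-60 against 0-30 and 150-180 against 30-60 min, and Ppp1r15a turned to -0.05 in the second step in the IFN alpha arrays. Levels near the minimum (Sdf2l1, Pdia4) limit what can be read, as do 3 arrays a group.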
